A study of Mus musculus with 4 samples.

Results

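Saa1, Saa3 and Hp encode serum amyloid A1, serum amyloid A3 and haptoglobin, secreted proteins of the acute phase response to injury and inflammation. They were taken as every probe whose single gene symbol in the platform annotation is Saa1, Saa3 or Hp. This gave 3 probes of 20205, 1 for each gene, and all 3 had a value on all 4 arrays. Each array compared, in 2 colours, lung RNA of ovalbumin-sensitized and then ovalbumin-challenged BALB/cJ mice (OVA, the egg white protein that serves as allergen) with a pool of lung RNA from 6 control animals. In 2 arrays the challenged mice and their non-sensitized controls had breathed particle-free air, and in the other 2 both had breathed air carrying UCP, which the labels do not spell out. Array 1 of either air carried the challenged lung in the dye Cy5, and array 2 carried it in Cy3. The labels give no ages for the mice.

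In the acute phase response, interleukin-1, tumour necrosis factor and interleukin-6 act through NF-kB, C/EBP factors and STAT3 to raise the synthesis of plasma proteins. The liver makes most of Saa1, which circulates on high-density lipoprotein, while Saa3 is made mainly outside the liver, by macrophages, epithelium and fat. Haptoglobin binds free haemoglobin and is made by the liver, fat and lung.

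Each value is a log2 ratio, challenged lung against control pool, so that 1 is a 2-fold higher level and 0 is no difference. Sensitization and challenge were applied together and cannot be told apart. The relative direction of the 4 arrays was read from the values, and the overall sign is likely only. Its basis is the convention of dividing Cy5 by Cy3, together with 7 genes that allergic mouse lungs are known to express strongly (Arg1, Ccl8, Chil3, Itln1, Retnla, Slc26a4 and Tff2), whose averaged log2 ratios had a median of 3.13. All 7 averages were above 0, but that of Itln1 was only 0.36. In particle-free air Itln1 lay on either side of 0, at -0.91 and 0.85. With the sign turned, each statement of higher and lower below would turn as well. The arrays give ratios and no levels, so the labelled tissue could not be checked by the levels of its markers. Whether array 1 and array 2 came from different mice is not stated in the labels, so the p-values cover the spread between arrays alone, which may be technical. The pool counts as 1 control sample, so the spread among control animals is not in these tests. Each air had its own control pool. A difference between the airs in the challenged lungs and a difference between the pools therefore cannot be told apart. In whole lung, a change in the number of cells of a type and a change in RNA per cell cannot be told apart.

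In the RefSeq gene order Saa3, Saa4, Saa1 and Saa2 lie next to each other on chromosome 7. The 250 bases before the RefSeq start of Saa3 and Saa1 are shown because the 2 genes were both high in particle-free air and far apart in UCP air. The Saa3 stretch is GRCm38.p6 chr7:46715677-46715926 and the Saa1 stretch is chr7:46742981-46743230, both on the minus strand. Capitals mark matches to TTGCNNAA, a C/EBP motif, searched on both strands.
Saa3: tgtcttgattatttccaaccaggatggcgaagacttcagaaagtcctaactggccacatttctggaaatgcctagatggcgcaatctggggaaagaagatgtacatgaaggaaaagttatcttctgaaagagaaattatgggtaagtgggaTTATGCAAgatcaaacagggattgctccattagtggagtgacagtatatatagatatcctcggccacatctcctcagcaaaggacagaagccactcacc
Saa1: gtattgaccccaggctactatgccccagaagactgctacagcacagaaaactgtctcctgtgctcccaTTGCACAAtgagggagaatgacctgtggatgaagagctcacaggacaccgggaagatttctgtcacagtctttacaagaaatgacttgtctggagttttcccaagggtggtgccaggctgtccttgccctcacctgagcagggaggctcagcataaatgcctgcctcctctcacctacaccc
Both stretches held 1 C/EBP match, which starts 99 bases before the start of Saa3 (TTATGCAA) and 182 bases before that of Saa1 (TTGCACAA). Such a match was in 9.57% of 32841 RefSeq promoters of the same length. A STAT3 motif, TTCNNNGAA, was in neither window and in 7.02% of promoters on either strand. A loose NF-kB motif of 10 bases (GGG and CC with any bases between, both strands) had 1 match in the Saa1 stretch, starting 78 bases before the start and not overlapping the C/EBP match, none in the Saa3 stretch, and a match in 45.8% of promoters. It is not in capitals above. The motifs were chosen with the sequences in view. The Saa1 and Saa3 stretches were identical at 48.9% of aligned positions, against 94.8% for Saa1 and its neighbour Saa2. Saa2 was not analysed here, RefSeq lists each of the names Saa1 and Saa2 as an older name of the other gene, and whether the Saa1 probe also bound Saa2 transcripts was not tested.

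Saa3 was far above its control in both airs. Its log2 ratio was 3.77 and 3.93 on arrays 1 and 2 of particle-free air, and 3.13 and 2.63 on those of UCP air. The lowest of the 4 values was thus a 6.19-fold higher level and the highest a 15.2-fold higher one. Only 62 probes, or 0.341% of the 18160 with a value on every array, were at least 2-fold higher on all 4 arrays, and Saa3 was the 1 member among them. The averaged log2 ratio was 3.37 ± 0.60 (SD, n = 4), a 10.3-fold higher level and the 30th highest of all probes. It did not pass the threshold of 0.05 by probe (limma, Benjamini-Hochberg adjusted p = 0.0705, unadjusted p = 1.9e-05), a test that called 1 probe or 0.00551%. With the probes of each gene averaged first, Saa3 rose (adjusted p = 0.0388), 1 of 9 genes or 0.0983% called. Its value is the same there, since it has 1 probe, and fewer features were tested. With probes of capped ratios left out the adjusted p was 0.0471, and over all alternatives it ran from 0.0388 to 0.363.

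By air, Saa3 lay at 3.85 ± 0.11 in particle-free air and at 2.88 ± 0.35 in UCP air (SD, n = 2 each). These are 14.4-fold and 7.37-fold higher levels than in the control pools. Neither passed by probe (limma adjusted p = 0.171 and 0.164), where the test called 0 probes or 0.00% in each air. Unadjusted p-values under 0.05 on the high side were found for 826 probes (4.55%) in particle-free air and for 672 (3.70%) in UCP air.

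Saa1 was high in particle-free air and near its control in UCP air. Its log2 ratio was 3.02 and 2.31 in particle-free air, which are 8.13-fold and 4.94-fold higher levels. On the arrays of UCP air it was 0.29 and -0.21, on either side of 0. The mean was 2.66 ± 0.51 in particle-free air (SD, n = 2, limma adjusted p = 0.226), and its probe was 57th of 18160 there. In UCP air it was 0.04 ± 0.35 (adjusted p = 0.99) and its probe was 8214th. The 95% interval of the UCP value, without adjustment, ran from -0.74 to 0.82. At least 2-fold higher on both arrays of particle-free air were Saa3, Saa1 and 190 probes in all (1.05%), and on both arrays of UCP air Saa3 and 164 in all (0.903%). The average over both airs was 1.35 ± 1.56 (SD, n = 4, adjusted p = 0.145), a mean of unlike values.

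Hp stayed within 1.41-fold of its control on every array. Its log2 ratio was 0.49 and 0.33 in particle-free air and -0.32 and -0.28 in UCP air. The 2 arrays of each air lay close together, and the airs lay on opposite sides of 0. The means were 0.41 ± 0.11 and -0.30 ± 0.02 (SD, n = 2 each, limma adjusted p = 0.543 and 0.756), and the average was 0.06 ± 0.42 (SD, n = 4, adjusted p = 0.884). The 95% interval of the average, without adjustment, ran from -0.33 to 0.44.

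**Figure D1:**
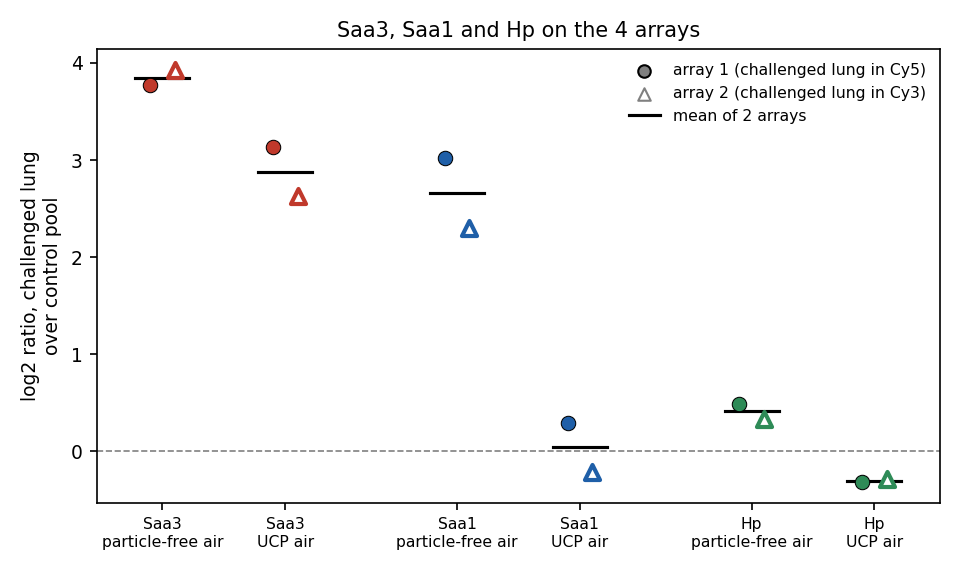
Log2 ratio of challenged lung over control pool (vertical axis) for Saa3, Saa1 and Hp in each air. Filled circles are array 1 (challenged lung in Cy5), open triangles array 2 (Cy3), and bars the mean of 2 arrays; Saa3 lies between 2.63 and 3.93 throughout, while Saa1 lies at 2.31 and 3.02 in particle-free air and at -0.21 and 0.29 in UCP air.

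All 3 members had both UCP arrays below both particle-free arrays, which held for 14.6% of all probes. The log2 ratio of Saa1 to its control pool lay lower in UCP air, with a difference of -2.62 ± 0.41 (SE, limma adjusted p = 0.92, unadjusted p = 0.0023), the 109th lowest of 18160 differences. For Saa3 the difference was -0.97 ± 0.33 (adjusted p = 0.984, unadjusted p = 0.0404) and for Hp -0.71 ± 0.29 (adjusted p = 0.984, unadjusted p = 0.064). No probe passed in this comparison (0.00%), and 367 (2.02%) were lower at an unadjusted p under 0.05. The unadjusted 95% intervals were -3.73 to -1.52 for Saa1, -1.87 to -0.07 for Saa3 and -1.49 to 0.06 for Hp. The gap for Saa3 depended on the scaling of the arrays. After quantile normalization Saa3 lay at 3.47 and 4.10 in particle-free air and at 4.17 and 2.25 in UCP air, and after scaling the arrays to the same spread at 3.55 and 3.53 against 3.78 and 2.62, so that the airs overlapped. Saa1 and Hp kept their gap under both, and all 3 members kept it with arrays centred on their medians. The adjusted p for these 3 differences ran from 0.348 to 1.0 over all alternatives.

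Saa3 and Saa1 were set against each other within each array, since array-wide constants cancel there. The log2 ratio of Saa3 exceeded that of Saa1 by 0.75 and 1.62 in particle-free air and by 2.84 and 2.84 in UCP air. It was higher on 4 of 4 arrays, by 2.01 ± 1.02 on average (SD, n = 4, exact two-sided sign-flip permutation test, p = 0.13, and the same after Benjamini-Hochberg adjustment over the 3 pairs of members). This is the smallest p that the 16 sign patterns of 4 arrays allow. By air the excess was 1.19 ± 0.62 after particle-free air, against 2.84 ± 0.0042 after UCP air (SD, n = 2 each), without overlap (exact permutation test, p = 0.333, the smallest that 2 against 2 arrays allow). The excess of Saa3 over Hp was more even, at 3.28, 3.60, 3.45 and 2.91 on the 4 arrays (exact sign-flip permutation test, p = 0.13). Saa1 exceeded Hp by 2.53 and 1.97 in particle-free air and by 0.61 and 0.08 in UCP air. These ratios do not compare how much of each transcript was present.

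The spread between the 2 arrays of an air also holds any dye effect. Between the Cy5 and the Cy3 array it was -0.16 and 0.50 for Saa3, 0.72 and 0.50 for Saa1, and 0.16 and -0.03 for Hp, in particle-free and UCP air. Each air holds 1 array of either dye orientation, so a dye effect that is the same in both airs cancels in the mean of an air and in the difference between the airs.

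Other genes of the acute phase were read for the pattern of Saa3, high in both airs, and that of Saa1, high in particle-free air. Of 31 such genes listed, 20 were measured on all 4 arrays. Their median log2 ratio was 0.87 in particle-free air, with 17 of 20 above 0, and 0.29 in UCP air, with 14 above 0. The medians of all 9153 genes were -0.02 and 0.00. None of the 20 passed the test in any comparison, by probe or by gene, where by gene the test called 0.0109% of genes in particle-free air, 0.0219% in UCP air and 0.00% for the difference. With probes averaged by gene, 6 of them were at least 2-fold higher on both arrays of particle-free air (1.02% of all genes). On both arrays of UCP air it was 0 of them (0.765% of all genes). Both UCP arrays lay below both particle-free arrays for 9 and above them for 1, while the former held for 15.4% of all genes.

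The haem carrier Hpx lay at 3.83 and 3.50 in particle-free air and at 1.20 and 0.48 in UCP air, high in the first and lower in the second as for Saa1. The antiprotease genes Serpina1b, Serpina1d and Serpina1e, which encode near-identical alpha-1-antitrypsins and may share probe signal, lay at 3.21 ± 0.49, 3.32 ± 0.26 and 3.48 ± 0.04 in particle-free air and at 0.48 ± 0.06, 0.58 ± 0.06 and 0.38 ± 0.29 in UCP air (SD, n = 2 each). Fgb, the fibrinogen beta chain, lay at 3.67 and 3.52 in particle-free air and at 1.27 and -2.99 in UCP air, so that its UCP arrays disagreed. The other fibrinogen chains did not share this, with Fgg at 0.12, 2.47, 0.19 and 0.30 and Fga at 0.25, -0.20, 0.52 and -0.09. Orm1, an acid glycoprotein, lay at 0.65 and 0.92 in particle-free air and at -0.74 and -0.85 in UCP air, on opposite sides of 0 as Hp did. Its paralogue Orm2 averaged 0.13 ± 0.45 (SD, n = 4).

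Several other genes of the list had smaller differences between the airs, among them Lcn2 (-0.50), Cfb (-0.51) and Cp (0.17). Lcn2, an iron-scavenging protein of neutrophils and epithelium, lay at 1.89 ± 0.32 in particle-free air and at 1.38 ± 0.60 in UCP air (SD, n = 2 each), though its 2 probes disagreed, with averages of 3.10 and 0.17. The first probe was high in both airs, as Saa3 was, at 4.15 and 2.67 in particle-free air and 1.83 and 3.77 in UCP air. The other lay at 0.08 and 0.65 and at 0.09 and -0.15. Cfb, a factor of the alternative complement pathway, lay at 1.24 ± 0.71 and 0.73 ± 0.22, and Cp, the copper carrier ceruloplasmin, averaged 0.72 ± 0.49 (SD, n = 4). The 2 probes of Cp disagreed, with averages of 1.19 and 0.25. Those of Cfb disagreed on array 1 of UCP air, at 1.17 and -0.03. Of the inter-alpha-inhibitor chains, Itih3 averaged 0.67, while Itih4 lay at 1.45 and 0.52 in particle-free air and, lower, at -0.31 and 0.13 in UCP air. Hamp, the iron hormone hepcidin, lay at 0.65 and 1.09 and, with UCP arrays that disagreed, at -0.40 and 2.28. Lbp, Mt1, Mt2 and Pglyrp1 averaged 0.04, 0.09, -0.17 and 0.21, of which Mt1 and Pglyrp1 were lower and Mt2 higher on both UCP arrays. The 2 probes of Mt2 disagreed. One lay at -1.14 and -0.54 in particle-free air and at 0.00 and 0.18 in UCP air. The airs overlapped on the other, at 0.34 and -0.06 against -0.19 and 0.04. Saa4, which lies between Saa3 and Saa1, was at -0.07, -0.51, -0.48 and -0.30 on the probe measured on every array. That probe was thus below 0 on all 4 arrays, whereas Saa3 was above 0 on each. A further Saa4 probe disagreed, at -1.10, 2.41 and 0.04 on the 3 arrays where it had a value.

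**Figure D2:**
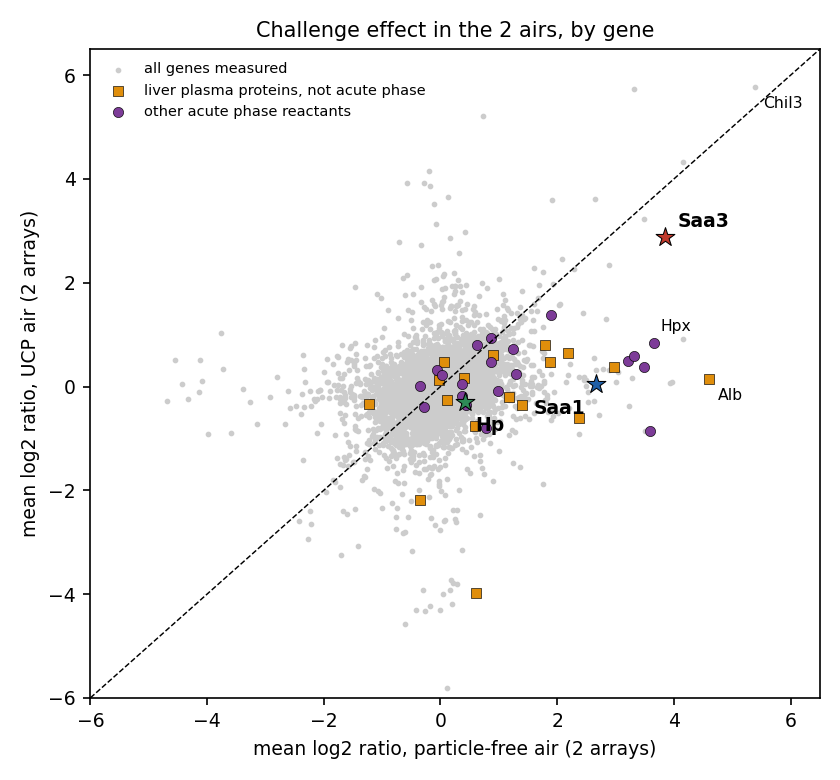
Mean log2 ratio in particle-free air (horizontal) against that in UCP air (vertical), each over 2 arrays; grey points are all genes measured, 29 of which lie outside the plotted range, and the dashed line marks equal values. Saa3 (3.85 and 2.88) lies below the dashed line by 0.97, and Saa1 (2.66 and 0.04) lies farther below it, with Hpx (3.66 and 0.84) and Alb (4.61 and 0.14).

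Saa1 is made mainly in liver, so genes of liver that are not raised in the acute phase were read beside it. Of 25 such genes, most but not all of them for plasma proteins, 17 were measured. Their median was 0.89 for particle-free air (14 above 0) and 0.13 for UCP air (9 above 0). The median of their differences between the airs was -1.37, against 0.01 for all genes, and 10 of 17 had both UCP arrays below both particle-free arrays, against 15.4% of all genes. Alb, which encodes albumin, lay at 4.75 and 4.46 in particle-free air and at -0.53 and 0.81 in UCP air. Apoh, a phospholipid-binding plasma protein, lay at 2.94 and 2.99 against 0.53 and 0.20, and Fabp1, the liver fatty acid binding protein, at 2.48 and 2.28 against -0.51 and -0.70. The 2 probes of Ttr, the thyroid hormone carrier transthyretin, disagreed, with averages of 2.60 and -0.26. Other genes of the list were unlike these. Trf, with UCP arrays that disagreed, lay at 0.82 and 0.41 against 0.05 and -8.03. These are averages of 2 probes that were not read singly, and the last value may hold a capped ratio. Itih2 was below 0 in both airs, at -0.05 and -0.66 against -1.99 and -2.39. In 3 of the 17 the mean was higher in UCP air. Among them were Kng1, with means of 0.07 and 0.48, and Vtn, at 1.58 and -4.02 against -0.39 and -0.29.

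Markers of hepatocytes, 10 of 14 of them measured, had medians of 3.18 (array 1) and 2.93 (array 2) in particle-free air, against 0.53 and 0.36 in UCP air, with 10 of 10 above 0 in particle-free air. Among the enzymes in that list, which are not secreted, Cyp3a11, a cytochrome P450, lay at 2.85 ± 0.56 and 1.30 ± 0.37, Tat, a tyrosine-degrading transaminase, at 1.04 ± 0.87 and -0.51 ± 0.59, and Cps1, of the urea cycle, at 0.24 ± 0.25 and 0.08 ± 0.19 in particle-free and UCP air (SD, n = 2 each). Of 24 hepatocyte enzymes listed 8 were measured, with medians of 0.78 and 0.10. Both UCP arrays lay below both particle-free arrays, as for Saa1, for 7 of the 10 markers and 5 of the 8 enzymes. The same held for 15.4% of all genes. The airs overlapped for Cps1, Fga, Apoa2, Gnmt and Ass1. These counts are not separate from each other, since Cyp3a11, Tat and Cps1 are both markers and listed enzymes. The other measured markers are also in the acute phase or liver plasma protein lists above. No marker or enzyme passed the test of the difference, whose median was -2.07 for the markers and -0.41 for the enzymes. Their part in the value of Saa1 was not tested. Saa3 lay at 2.88 in UCP air, where the hepatocyte marker median was 0.29.

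Markers of other cell types, among them cells known to make Saa3 or Hp, were also read. Macrophage and monocyte markers had medians of 1.10 and 1.05 in particle-free and UCP air (6 of 12 measured), with the protease Ctss at 2.27 ± 0.36, the galectin Lgals3 at 1.82 ± 0.28, and Marco, a scavenger receptor of resident alveolar macrophages, at -0.36 ± 0.36 (SD, n = 4 each). Neutrophil markers had medians of 0.27 and 0.59 (8 of 13 measured), with the granule genes Ngp and Camp at 1.60 ± 0.27 and 1.59 ± 0.02 in particle-free air and at 1.07 ± 0.09 and 0.79 ± 0.18 in UCP air (SD, n = 2 each). These were the highest of the list in particle-free air. Ltf, Mmp9, Elane and Mpo averaged -0.08 ± 0.26, 0.15 ± 0.17, 0.43 ± 0.94 and 0.19 ± 0.81 (SD, n = 4 each). The calprotectin subunits differed, with S100a8 at 1.07 ± 0.18 and 0.94 ± 0.97 and S100a9 at 0.12 ± 0.01 and 0.58 ± 0.44 in particle-free and UCP air (SD, n = 2 each). In all, 3 of the 8 neutrophil markers had both UCP arrays below both particle-free arrays, against 15.4% of all genes. For 1 of the 8, S100a9, the UCP arrays lay above, as for 1544 of all 9153 genes. Adipocyte markers lay below 0 in both airs for 8 of 8 genes measured, with medians of -0.96 and -1.36. Gpd1 and Car3, metabolic enzymes of fat, fell in the averaged effect when probes were averaged by gene, to -2.48 ± 0.91 and -2.03 ± 0.49 (SD, n = 4 each, limma adjusted p = 0.0491 and 0.04998). Alveolar type 2 markers had medians of -0.20 and 0.07 (5 of 9), eosinophil markers of 0.72 and 0.61 (2 of 8), airway epithelial markers of -0.08 and -0.06 (5 of 11), endothelial and fibroblast markers of -0.02 and 0.29 (7 of 9), heart muscle markers of 0.02 and -2.74 (7 of 9) and red cell markers of -0.80 and -0.34 (3 of 6). The heart muscle marker Nppa passed with probes averaged by gene. It lay at 0.11 ± 0.39 in particle-free air and, below its control pool, at -5.81 ± 0.14 in UCP air (SD, n = 2 each, limma adjusted p = 0.0282 for UCP air). Its averaged effect was -2.85 ± 3.43 (SD, n = 4, limma adjusted p = 0.0491), a mean of unlike values. The part of all these cells in the values of the members was not tested.

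**Figure D3:**
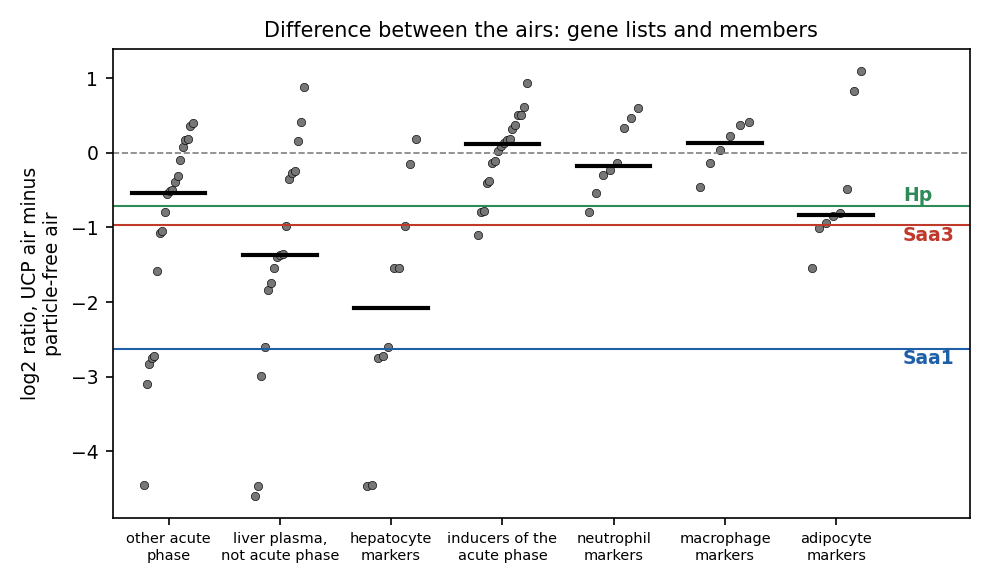
Difference of log2 ratios, UCP air minus particle-free air (vertical axis), for each measured gene of 7 lists (points) with the list median (black bar); coloured lines mark Hp (-0.71), Saa3 (-0.97) and Saa1 (-2.62). The Saa1 line lies below the hepatocyte marker median of -2.07, and the medians of inducers, neutrophil and macrophage markers lie near 0.

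The cytokines, receptors and transcription factors that induce the acute phase had medians near those of all genes. Of 39 listed 18 were measured, with medians of 0.02 in particle-free and 0.16 in UCP air, and none passed in any comparison by probe or gene. The transcripts of interleukin-6 and its receptor chains were not among those measured on all 4 arrays. Cebpd, a C/EBP factor of acute phase promoters, lay at 1.15 and 1.11 in particle-free air and at 0.17 and 0.51 in UCP air, the only gene of the 18 that was at least 2-fold higher on both arrays of particle-free air, against 1.02% of all genes. Il1b, which encodes interleukin-1 beta, averaged 0.73 ± 0.69 and Stat3 0.26 ± 0.19 (SD, n = 4 each). Jak1, a kinase of cytokine receptors, lay at 0.14 and 0.40 against -0.63 and -1.04, and Nr3c1, the glucocorticoid receptor, at -0.51 and -0.76 against 0.10 and 0.51.

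Partners of the secreted proteins were read as well. Of 19 serum amyloid A receptor and lipoprotein genes 8 were measured, with medians of 0.17 and 0.33 in particle-free and UCP air. Apoa1 and Apoa2, the main proteins of high-density lipoprotein, differed between the arrays of particle-free air, at 2.71 and -0.92 and at 3.41 and 0.16, and in UCP air lay at 0.68 and 0.55 and at 1.10 and 0.51. Of 18 genes of haemoglobin and haem handling 9 were measured, with medians of 0.44 and 0.13. Fth1, the ferritin heavy chain that stores iron, averaged 0.77 ± 0.13 and Hba-a1, an alpha globin and thus a ligand of haptoglobin as haemoglobin, -0.57 ± 0.36 (SD, n = 4 each). Complement and coagulation genes (12 of 24 measured) had medians of 1.07 and 0.65. C1qa, of the classical complement pathway in macrophages, averaged 1.09 ± 0.46, while C1qb and C1qc averaged -0.11 ± 0.31 and 0.78 ± 0.26 (SD, n = 4 each). Larger averages in this list were those of F10, Serpinc1 and F7, at 1.56 ± 0.38, 1.41 ± 0.93 and 1.22 ± 0.66 (SD, n = 4 each). Type 2 and alternatively activated macrophage genes (9 of 15 measured) had medians of 1.69 and 2.29. In this list Chil3 and Ccl8 rose in the averaged effect by gene, but 4 of its genes, Chil3, Retnla, Arg1 and Ccl8, are among those used for the overall sign.

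The genes nearest to each member were found by the Euclidean distance of their log2 ratios over the 4 arrays, among 9152 other genes. Nearest to Saa3 was the chemokine Ccl9 at a distance of 0.92, followed by the protease Ctsk (1.73), the chemokine Ccl8 (2.03), the anion exchanger Slc26a4 (2.27) and the chemokine Ccl6 (2.41), where the median distance of all genes was 6.89. These 5 genes lay at 2.10 or more on every array. Nearest to Saa1 were Rab3d, a secretory vesicle GTPase, at 0.36, then Apoh (0.84), the apolipoprotein Apoa5 (0.95), Serpina1b (1.08) and Fabp1 (1.09), against a median of 3.93. Of these, all but Rab3d are made mainly in liver. Nearest to Hp were Tjap1, Nras, Btbd7, Mdh2 and Zfp316, at distances of 0.18 to 0.24 against a median of 1.15, which reflects how close to 0 Hp lies. With 4 arrays a small distance says little beyond the values themselves.

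**Figure D4:**
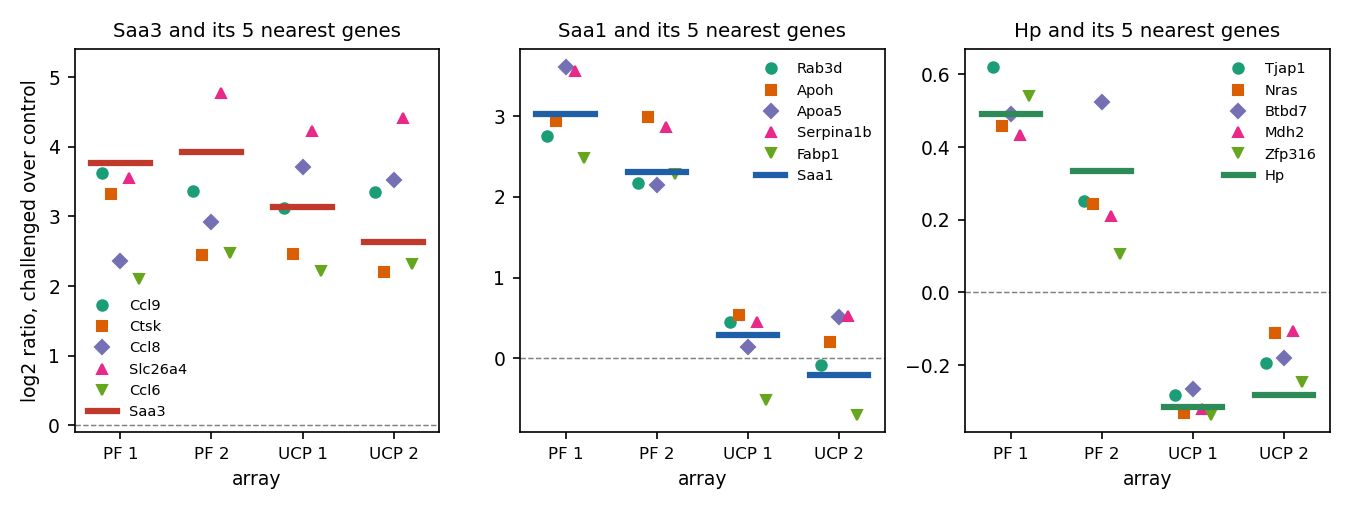
Log2 ratio on each array (PF, particle-free air; UCP, UCP air) of Saa3, Saa1 and Hp (coloured bars) and of the 5 genes nearest to each (points), with a vertical scale of its own in each panel. The Saa3 panel stays above 2.10 on all arrays, the Saa1 panel drops from 2.15 or more in particle-free air to 0.53 or less in UCP air, and the Hp panel spans -0.34 to 0.62.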

How the data were processed

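The authors deposited 1 log2 ratio per probe and array. Per the labels' protocols, 20 µg of total RNA was labelled indirectly and hybridised with a control pool. For the scanner, image software and normalization the sources used here give nothing. The log2 base, an array constant and the relative direction were read from the values: on each array 20 to 58 probes lay on a plateau equal to a ratio capped at 100000, with a positive sign where challenged lung was in Cy5 and a negative one where it was in Cy3, and all 238 to 707 ratios under 0.3 were multiples of 0.001 (within 0.0012, log2). Over all probes, arrays correlated at 0.07 to 0.18.

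Probes with 4 values (18160 of 20205) were tested with limma (version 3.58.1, under R 4.3.3), fitting each air as a coefficient (2 residual and 2.32 prior degrees of freedom), two-sided, Benjamini-Hochberg adjustment over all probes, threshold 0.05. Values were not scaled further and no filter on dim probes was possible. List genes are averages over their probes, named through Entrez identifiers (13849 of 13852 probes with a symbol matched). The fit was tested on simulated data. The labels' replicate numbers, which mark only the dye orientation, were not used as pairs (correlation of deviations 0.05). Named were the members, all measured acute phase genes, Alb, Ttr, Apoh, genes with large averages from the other lists, and the 5 nearest genes; Tat, Cps1, Jak1, Nr3c1, Stat3 and other genes outside this rule were chosen after their values were seen. Members and lists were chosen with earlier results of these data known. Promoters are RefSeq's (GRCm38.p6); 3 of the names Saa1, Saa2, Saa3 and Hp were matched.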

Additional observations from a re-analysis of the deposited data

Results flagged for a closer look

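Hp lay above 0 on both arrays of particle-free air and below 0 on both arrays of UCP air, with a log2 difference between the airs of -0.71. Among all listed genes measured, the same held for Orm1 (-1.58), Mt1 (-0.55), Fabp1 (-2.99), Ambp (-1.74), Apoc1 (-1.36), Tat (-1.55), Jak1 (-1.10) and the heart muscle marker Myl3 (-1.998), and for the genes nearest to Hp, which share this by the way they were chosen: Tjap1 (-0.67), Btbd7 (-0.73), Zfp316 (-0.61), Nras (-0.57) and Mdh2 (-0.54). Nr3c1 (0.94) and Abca3 (0.74) lay on the opposite sides. Of 9153 genes, 3.37% lay above 0 in particle-free air and below 0 in UCP air on all arrays, and 4.34% the other way round. None of these differences passed limma's test over all probes, and the test of Hp gave an adjusted p of 0.984.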

How the results depend on the processing

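Precision is limited by 4 arrays and 1 control pool per air. The 3 members kept their direction in each comparison under all alternatives, except that Saa1 in UCP air, near 0, ran from -0.21 to 0.29 without 1 array of that air. The averaged value of Saa3 (3.37) passed the threshold with probes averaged by gene (adjusted p = 0.0388) and without capped probes (3.37, adjusted p = 0.0471), where fewer features were tested. Without 1 array it ran from 3.24 to 3.49 and did not pass. Saa3 minus Saa1 ran from 1.74 to 2.43 without 1 array. With the replicate number as a block, which is also the dye, the averaged value of Saa3 stayed at 3.37 (adjusted p = 0.289), that of Saa1 at 1.35 (0.297) and that of Hp at 0.06 (0.893), and the count of called probes went from 1 to 0. That count was 2 with arrays scaled, 5 without capped probes, 9 by gene, and 0 with quantile normalization or with both arrays of each air averaged, and it ran from 0 to 34 without 1 array. In particle-free air the count was 1 by gene and 10 with values on at least 3 arrays, and ran from 0 to 24 without 1 array. In UCP air it was 2 by gene and 1 with quantile normalization, and ran from 0 to 36. For the difference between airs it was 1 with quantile normalization and ran from 0 to 32. The cause was not tested. No member was called in any fit that left out an array. The medians by air of 3 lists (acute phase reactants, liver plasma proteins and hepatocyte markers) were read again under 3 scalings and without 1 array, chosen after seeing the data. Of these, that of liver plasma proteins in particle-free air moved most, from 0.89 to 1.58 without array 2. The medians of the other lists were not read again.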
